A study of Drosophila melanogaster with 3 samples.

Results

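The data describe where the transcription factor Stripe was detected on chromatin at 10 genes of the muscle sarcomere, out of 13945 protein-coding genes annotated on the chromosome arms of Drosophila melanogaster. The genes are Mhc, Mlc1, Mlc2, Prm, bt, sls, sals, Mlp60A, Mlp84B and Zasp52. They were taken by name, and a peak was assigned to a gene when its summit lay in the gene body or within 5 kb of it. Chromatin immunoprecipitation and sequencing (ChIP-seq) was done on whole embryos, of 8 to 24 hours, of a transgenic strain in which the product of the stripe gene (sr) carries an eGFP tag. Per the labels' description the tag was pulled down with an antibody against GFP, while their antibody entry reads sr. The 3 libraries are labelled as biological replicates 1, 2 and 3 of this single group, so there was no comparison between conditions and no test.

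Stripe belongs to the EGR family of zinc finger factors and directs the differentiation of tendon cells, the ectodermal cells to which embryonic muscles attach. The sarcomere is the contractile unit of muscle, built from thick filaments of myosin that slide along thin filaments of actin. Titin-like proteins tie the thick filaments to the Z disc, the border at which the thin filaments of neighbouring sarcomeres are anchored. The genes described here are best known for their work in muscle cells, and the embryos held all tissues together. In such bulk samples, fewer bound cells and less binding per cell cannot be told apart, nor can the bound cell type. ChIP-seq peaks give no measure of how much RNA a gene makes.

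Each library has a long ranked list and a short thresholded list taken from it, which the authors made with the irreproducible discovery rate (IDR). The IDR is low for peaks that rank alike and high in 2 sets of reads, and the thresholded lists hold peaks with a global IDR of 0.01 or less. The thresholded lists held 2754, 1683 and 3013 peaks in replicates 1, 2 and 3, and the ranked lists held 81528, 89928 and 88129. Replicate 2 had the shortest thresholded list, and the part of that in its lower counts at these genes was not tested. Signal is the authors' value for a peak, and its median over the thresholded lists was 53.3, 52.6 and 56.3 in replicates 1, 2 and 3. A region was called shared when thresholded summits of all 3 libraries, each widened by 100 bp, merged into it. There were 1180 shared regions among 4000 merged ones, and 2187 held summits of at least 2 libraries. Coordinates are those of dm6, and sequencing depth is unknown.

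Shared regions were found at 3 of the 10 sarcomere genes, which were sals, Mlc2 and Zasp52. The window around each holds a different sequence, and the EGR core, GTGGGCG or GTGGGTG on either strand, was searched within 100 bp of the centre. Windows of 201 bp are printed for the shared sites at sals and Mlc2, because the first holds the core and the second does not. Those of Mhc and Prm are printed because a core lay almost at the centre although no library's peak passed the threshold. For Mlp84B the 30 bases around the core nearest to the summit are given. All are from the Release 6 genome sequence of RefSeq, run 5′ to 3′ on the strand of the sarcomere gene, and have the core or its reverse complement in capitals.
sals, chr3R:11451461-11451661, minus strand: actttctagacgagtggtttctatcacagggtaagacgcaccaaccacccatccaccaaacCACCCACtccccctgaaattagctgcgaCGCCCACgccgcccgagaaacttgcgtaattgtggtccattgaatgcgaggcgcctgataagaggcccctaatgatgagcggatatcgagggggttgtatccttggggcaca
Mlc2, chr3R:30175120-30175320, minus strand: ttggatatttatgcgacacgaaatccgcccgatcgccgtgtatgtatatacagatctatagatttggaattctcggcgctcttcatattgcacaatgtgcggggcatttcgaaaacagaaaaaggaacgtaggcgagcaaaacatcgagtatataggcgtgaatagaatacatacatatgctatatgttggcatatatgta
Mhc, chr2L:16766052-16766252, plus strand: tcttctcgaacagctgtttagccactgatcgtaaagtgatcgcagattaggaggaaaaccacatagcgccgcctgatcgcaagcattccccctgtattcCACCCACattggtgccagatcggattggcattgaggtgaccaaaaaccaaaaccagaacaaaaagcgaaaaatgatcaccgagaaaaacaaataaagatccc
Prm, chr3L:8743170-8743370, minus strand: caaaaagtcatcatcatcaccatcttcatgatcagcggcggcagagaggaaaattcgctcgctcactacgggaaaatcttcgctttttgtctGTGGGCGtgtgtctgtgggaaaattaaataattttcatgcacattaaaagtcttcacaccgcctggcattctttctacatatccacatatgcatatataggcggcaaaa
Mlp84B, chr3R:7112859-7112888, minus strand: attccgtcccaCGCCCACttgcgcgcatta

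Counted gene by gene, 3 of the 10 sarcomere genes had a shared region, against 15.0% of all protein-coding genes by the same rule. With summits of at least 2 libraries the count was 5 of 10, adding sls and Mlp84B, against 24.4% of all genes. Thresholded summits stood at 5 of the 10 genes in replicate 1, against 28.2% of all genes. They stood at 4 in replicate 2, against 20.0%, and at 5 in replicate 3, against 31.3%. The same 4 genes, Mlc2, sls, sals and Zasp52, had a summit in every library, and Mlp84B was the one that lacked a summit in replicate 2. The authors' conservative list, made from all 3 libraries together, added Mhc and Prm and so reached 7 of 10, against 37.0% of all genes. Their longest joint list added Mlp60A for 8 of 10, against 42.7% of all genes. Mlc1 and bt had no summit in any of these lists.

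**Figure D1:**
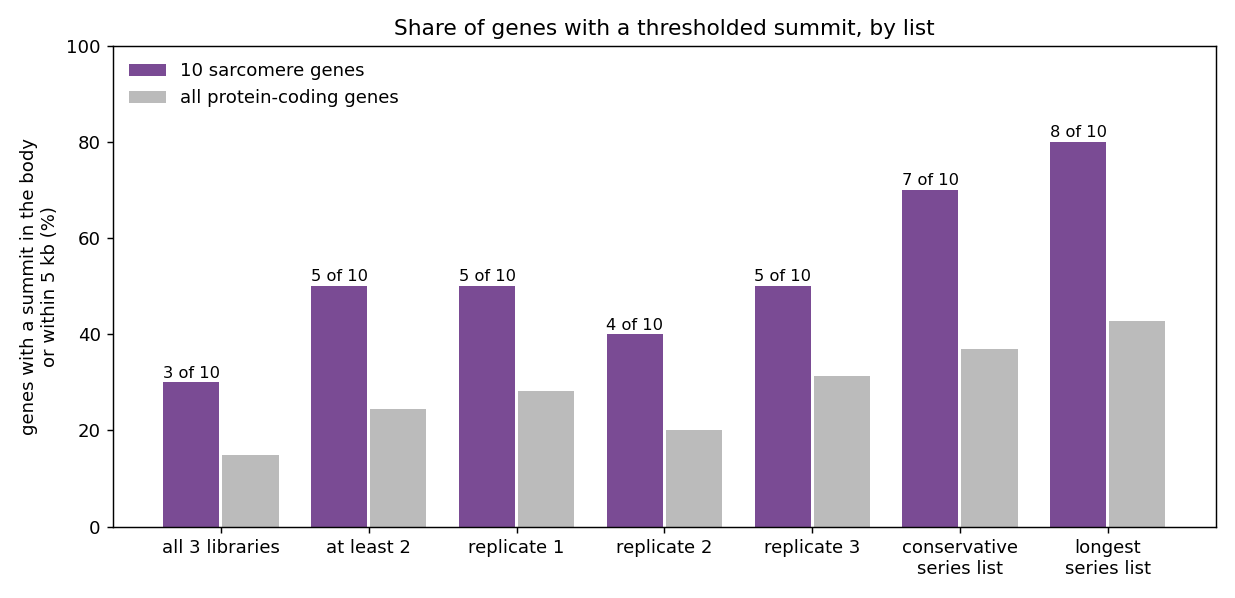
Share of genes (%) with a summit in the gene body or within 5 kb, for the 10 sarcomere genes (purple, with the count above the bar) and all 13945 protein-coding genes (grey), by list. The sarcomere genes have the higher share in each list, from 3 of 10 against 15.0% for shared regions to 8 of 10 against 42.7% for the longest series list, and they are also longer genes.

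Gene length differs between these sets and bears on the counts, since a long gene has more room for a summit. The median length of the 10 genes was 13.3 kb, against 2.17 kb for all protein-coding genes. Counted by length of DNA, the 346 kb in and around the 10 genes held 8.67 shared regions per Mb, against 10.1 per Mb around all protein-coding genes and 8.81 per Mb over the whole arms. These windows made up 0.258% of the arms and held 0.254% of the shared regions. Thresholded summits at the 10 genes numbered 11, 4 and 8 in replicates 1, 2 and 3, a mean of 7.67 ± 3.51 (SD, n = 3), or 0.400%, 0.238% and 0.266% of each list on the arms. Of the regions in at least 2 libraries they held 0.366%, and of the conservative list 0.321%, against 0.258% of the arms. These shares rest on 8 regions and 13 peaks, and the arms include sequence away from genes. Whether they exceed the share around other genes was not tested. The sr locus itself, with 5 kb on each side, held 11 shared regions.

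**Figure D2:**
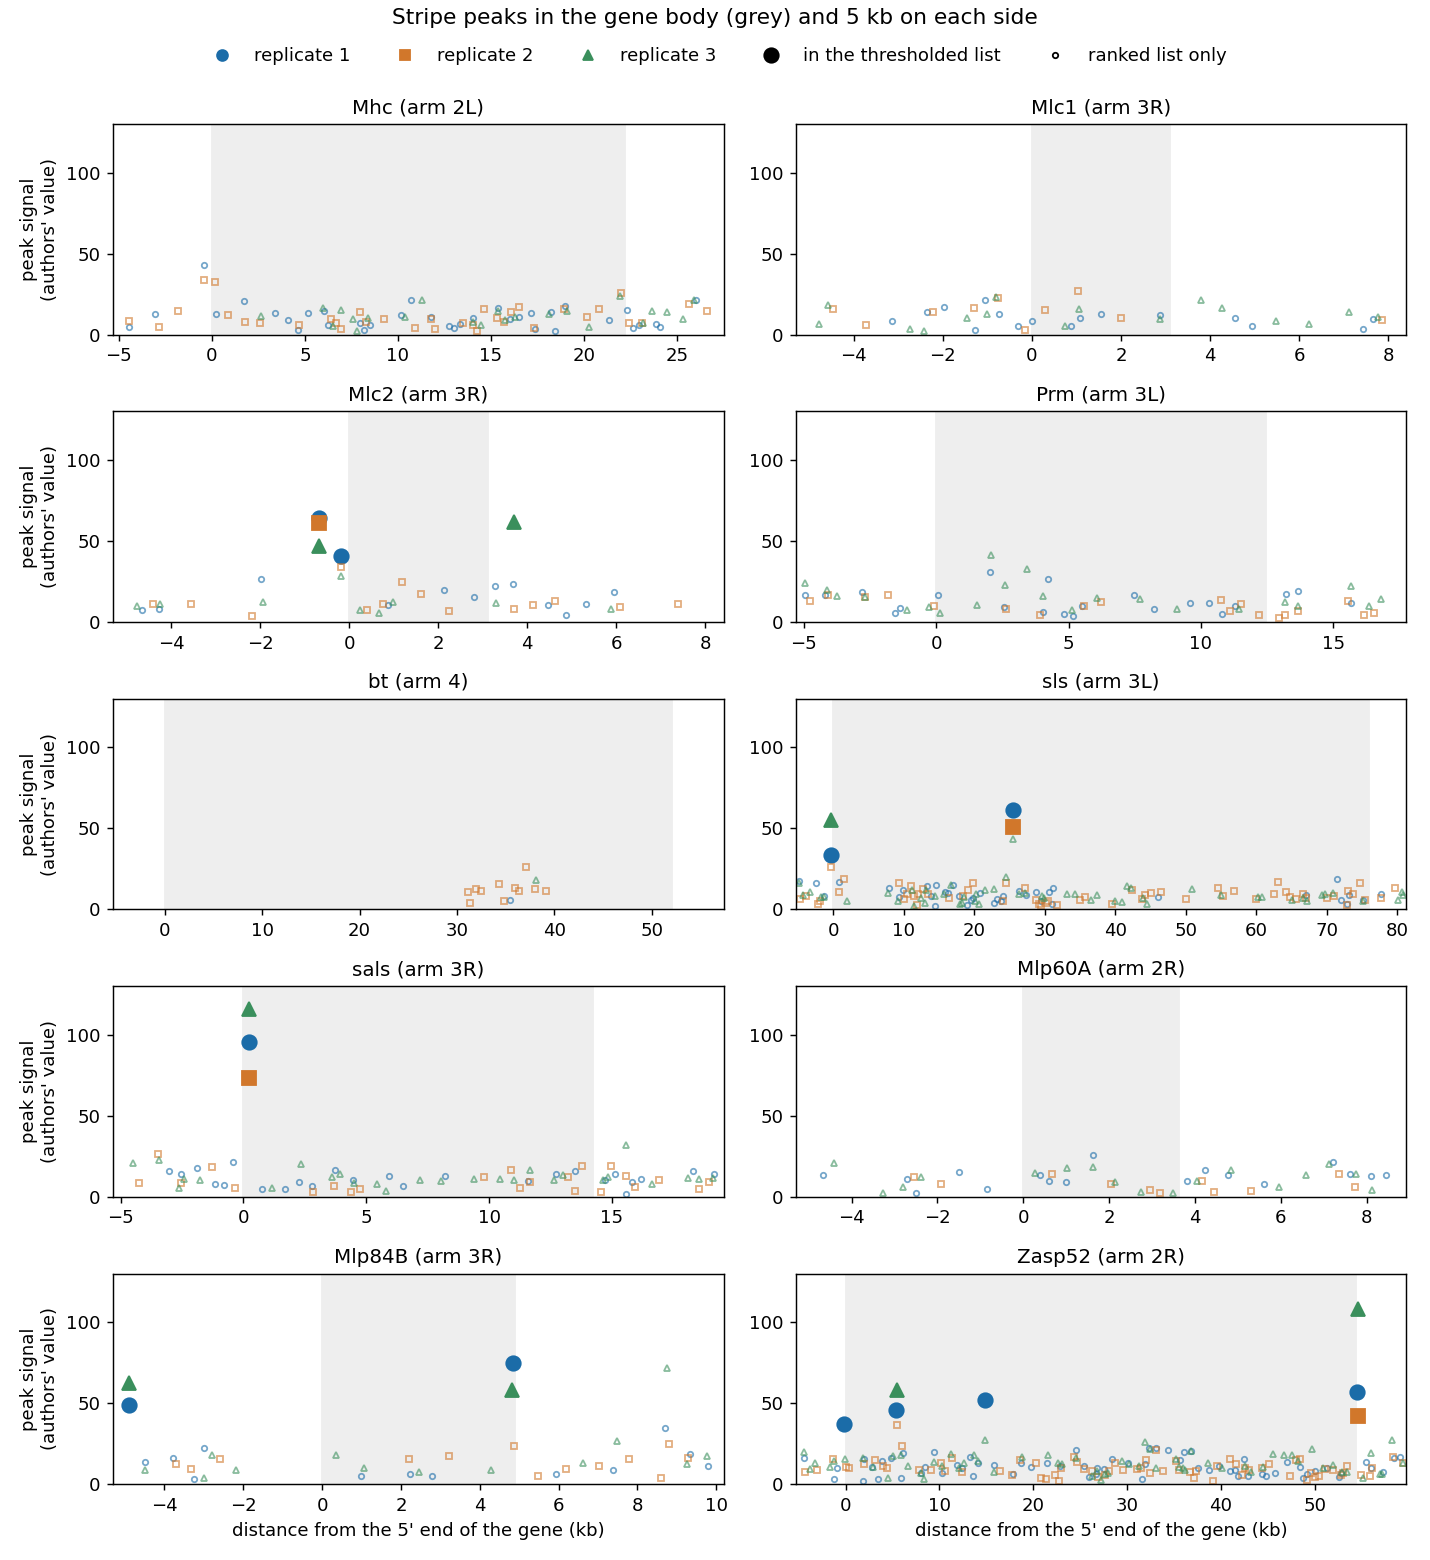
Peak signal (authors' value) against distance from the 5′ end of the gene (kb) for the 10 genes, with the gene body in grey and 5 kb shown on each side. Large filled symbols are thresholded peaks and small open ones are in the ranked list alone; at sals the 3 libraries stack at 1 place with signals of 73.5 to 116, and at bt few peaks are seen at all.

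The site at sals had the highest mean signal of the 3 shared ones. The gene encodes Sarcomere length short, an actin-binding protein needed for thin filaments to grow to their full length. Its signal was 95.6 in replicate 1, 73.5 in replicate 2 and 116 in replicate 3, a mean of 94.99 ± 21.1 (SD, n = 3). All 3 values were above the median of their library's list, at its percentiles 86.3, 76.4 and 88.0. The global IDR was 1.00e-05, 3.89e-05 and 1.00e-05, where 1.00e-05 is the lowest value that the lists give. By mean signal percentile the region came 321st of the 1180. No other thresholded summit lay in or near sals.

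The sals summits were at 11451550, 11451567 and 11451565 on chromosome arm 3R, and the peaks were narrow, at 137, 76 and 139 bp. Most of the other peaks named here were 270, 250 and 264 bp wide in replicates 1, 2 and 3. The mean position lay 230 bp downstream of a transcription start site (TSS) of sals, inside the gene, and also inside CG17230. The printed window has a GTGGGCG core whose middle is 8 bp from that centre and a GTGGGTG core 36 bp from it. Both read on the strand opposite to sals, so both appear as the reverse complement.

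Among the thick filament genes, Mlc2 was the only one with a shared region. Mlc2 encodes the regulatory light chain of muscle myosin, which binds the neck of the heavy chain. The shared site, 669 bp upstream of its TSS in intergenic sequence on 3R, had signals of 64.3, 60.8 and 46.8 in replicates 1, 2 and 3, a mean of 57.3 ± 9.27 (SD, n = 3). Replicate 3 was the lowest, at percentile 29.5 of its list with a global IDR of 0.00626, while the other libraries stood at percentiles 67.4 and 63.0 with 1.19e-04 and 1.65e-04. The region came 869th of the 1180. The printed Mlc2 window has no EGR core, and its only match among the searched motifs was the E-box CANNTG, a palindrome counted on each strand.

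A further pair of summits flanked Mlc2. At 184 bp upstream of the TSS, the signal was 40.6 in replicate 1, 33.7 in replicate 2 and 28.3 in replicate 3. Replicate 1 passed with a global IDR of 0.00687, replicate 2 fell just outside at 0.0104, and replicate 3 was at 0.108. Past the other end of the gene, 588 bp beyond the 3′ end, replicate 3 had a signal of 61.9 with a global IDR of 2.83e-04, while replicates 1 and 2 had 23.6 and 8.03 and did not pass. That summit lay nearer to a TSS of Rsod, at 357 bp inside that gene, than to the TSS of Mlc2. All 3 places at Mlc2 were in the authors' conservative list, with the site at 669 bp ranked highest, at 935 of 4044.

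Mhc, the gene of the muscle myosin heavy chain, had no thresholded summit in any library. The conservative list placed a peak 414 bp upstream of the 5′ end of the gene, with a signal of 117 and rank 1975 of 4044. In the ranked lists this place had a signal of 42.8 in replicate 1 and 33.8 in replicate 2, and replicate 3 had no peak within 100 bp. The global IDR was 0.0122 in replicate 1, just outside the threshold, and 0.329 in replicate 2. The GTGGGTG core in the printed Mhc window has its middle 2 bp from the centre of this peak.

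Prm encodes paramyosin, a rod protein of the thick filament core in invertebrate muscle. Like Mhc, it had a peak in the conservative list and none in the thresholded lists. This peak lay in an intron, 2040 bp downstream of a TSS, with a conservative signal of 89.8 and rank 2783. The signal was 30.6 in replicate 1 and 41.1 in replicate 3, with global IDR values of 0.684 and 0.0204, and replicate 2 had no peak there. The GTGGGCG core in the printed Prm window was 5 bp from the centre. Another ranked peak, 4143 bp upstream of the gene at the promoter of CG13306, was found in all 3 libraries. Its summits at 8749515, 8749406 and 8749437 were scattered around a GTGGGCG core with its middle at 8749455. The core was 2 bp from the mean of the summits, and no single summit was that close. The signals there, 16.9, 16.7 and 19.8, were below the lowest signal of a thresholded peak at the 10 genes. That lowest signal was 33.6, 42.4 and 46.8 in replicates 1, 2 and 3. That is not a signal limit, since the lowest signal in the whole thresholded lists was 2.05, 2.02 and 2.15.

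Mlc1, the gene of the alkali or essential light chain of myosin, had no peak in any joint list used here. Of its places with ranked peaks in all 3 libraries, the best by mean percentile lay 762 bp upstream of the TSS and had signals of 13.0, 22.6 and 23.4 in replicates 1, 2 and 3. The global IDR there was 0.872, 0.709 and 0.788, far from the limit of 0.01. No ranked peak at Mlc1 had a global IDR of 0.05 or less in any library. The regulatory and the essential light chain gene thus lay on opposite sides of the threshold in all 3 libraries.

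The titin-like genes were sls and bt. The gene sls (sallimus) encodes Sallimus and its shorter form Kettin, which reach from the Z disc toward the thick filament. It had 2 regions, each with thresholded summits of 2 libraries. One was at the promoter, 323 bp upstream of the TSS, with signals of 33.6, 26.3 and 55.2 in replicates 1, 2 and 3. Replicates 1 and 3 passed with global IDR values of 0.00683 and 7.76e-04, and replicate 2 did not, at 0.0727. The value of 33.6 stood at percentile 5.85 of its list, so this was among the weakest thresholded peaks of replicate 1. The other region lay 25531 bp downstream of the TSS, in sequence that is the 3′ UTR of a shorter sls transcript. Its signals were 61.6, 50.7 and 43.5, and here replicate 3 was the library outside the threshold, at a global IDR of 0.0191. Neither sls region had an EGR core within 100 bp of the centre.

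The gene bt (bent) encodes projectin, a giant titin-like protein of the thick filament. It lies on the small chromosome arm 4 and had almost no peaks, even in the ranked lists. Its 62075-bp window held 1, 11 and 1 ranked peaks in replicates 1, 2 and 3, or 0.161, 1.77 and 0.161 per 10 kb. Arm 4 as a whole had 0.215, 0.245 and 0.208 ranked peaks per 10 kb, so 11 of the 33 ranked peaks of replicate 2 on that arm were at bt. All of them lay 31.1 to 39.1 kb from the 5′ end of the gene, and the highest signal was 26.0, in replicate 2. The place with ranked peaks of more than 1 library was a coding exon, with a signal of 12.6 in replicate 2 and 18.3 in replicate 3 and none in replicate 1. Its centre, the mean of the summits at 762433 and 762527, was 9 bp from a GTGGGTG core, and neither summit itself was that close. No ranked peak lay within 500 bp of a bt TSS in any library.

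The Z disc genes differed among themselves. Zasp52 encodes a PDZ and LIM domain protein that binds alpha-actinin, and it is known both from Z discs and from muscle attachment sites. It had 4 merged regions, of which 1 was shared. The shared one lay 119 bp past the 3′ end of the gene, in intergenic sequence. Its signal was 57.0, 42.4 and 108 in replicates 1, 2 and 3, a mean of 69.0 ± 34.2 (SD, n = 3), and replicate 3 stood far above the others. The percentiles in the thresholded lists were 57.6, 25.8 and 86.1, and the region came 801st of the 1180. Leaving out replicate 3 gave a mean of 49.7. A GTGGGTG core lay 85 bp from the centre, near the edge of the searched window.

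Inside Zasp52, and also inside the gene tun, an intronic region 3344 bp downstream of a Zasp52 TSS had signals of 45.7, 36.8 and 58.0. Replicates 1 and 3 passed at global IDR values of 0.00182 and 0.00204, and replicate 2 did not, at 0.0873. A GTGGGCG core lay 12 bp from its centre. Both remaining Zasp52 regions were thresholded in replicate 1 alone. The intronic one, 12749 bp downstream of a Zasp52 TSS, had a signal of 51.9 in replicate 1 and 27.2 in replicate 3. A GTGGGCG core stood exactly at its centre. It also lay inside tun, and the nearest TSS, 8168 bp away, was that of tun. The one 134 bp upstream of a Zasp52 TSS lay inside tun and had 37.4 in replicate 1 and 15.7 in replicate 3. Replicate 2 had no ranked peak at either. All 4 Zasp52 regions held an EGR core within 100 bp.

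The muscle LIM protein genes Mlp84B and Mlp60A encode LIM domain proteins, of which Mlp84B is known from the Z disc. Mlp84B had 2 regions with thresholded summits of replicates 1 and 3. The first lay in its 3′ UTR, which overlaps the gene Alh, with signals of 74.6, 23.8 and 57.9 in replicates 1, 2 and 3. Replicate 2 was well below the others and had a global IDR of 0.121. This region held 3 EGR cores, 27, 72 and 76 bp from its centre, the most of the 12 merged regions at these genes. The second lay 4907 bp upstream of the gene, in an intron of Alh and 1099 bp from an Alh TSS. It had 49.1 in replicate 1 and 62.7 in replicate 3, no peak in replicate 2 and no EGR core.

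One peak near Mlp84B was in the ranked list of replicate 3 with a global IDR of 7.14e-05 and yet absent from its thresholded list. It lay 3876 bp past the 3′ end of Mlp84B, in an intron of Alh, and had a signal of 71.7 in replicate 3, against 34.6 and 25.1 in replicates 1 and 2. The ranked lists held 96, 70 and 101 such peaks in replicates 1, 2 and 3, and the sources used here do not say why they were left out. Mlp60A had no peak in the thresholded or conservative lists. Of the places with ranked peaks in all 3 libraries, the best by mean percentile had 21.7, 13.9 and 20.2 in replicates 1, 2 and 3 and lay 3615 bp past its 3′ end and 56 bp from a TSS of CG16786.

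**Figure D3:**
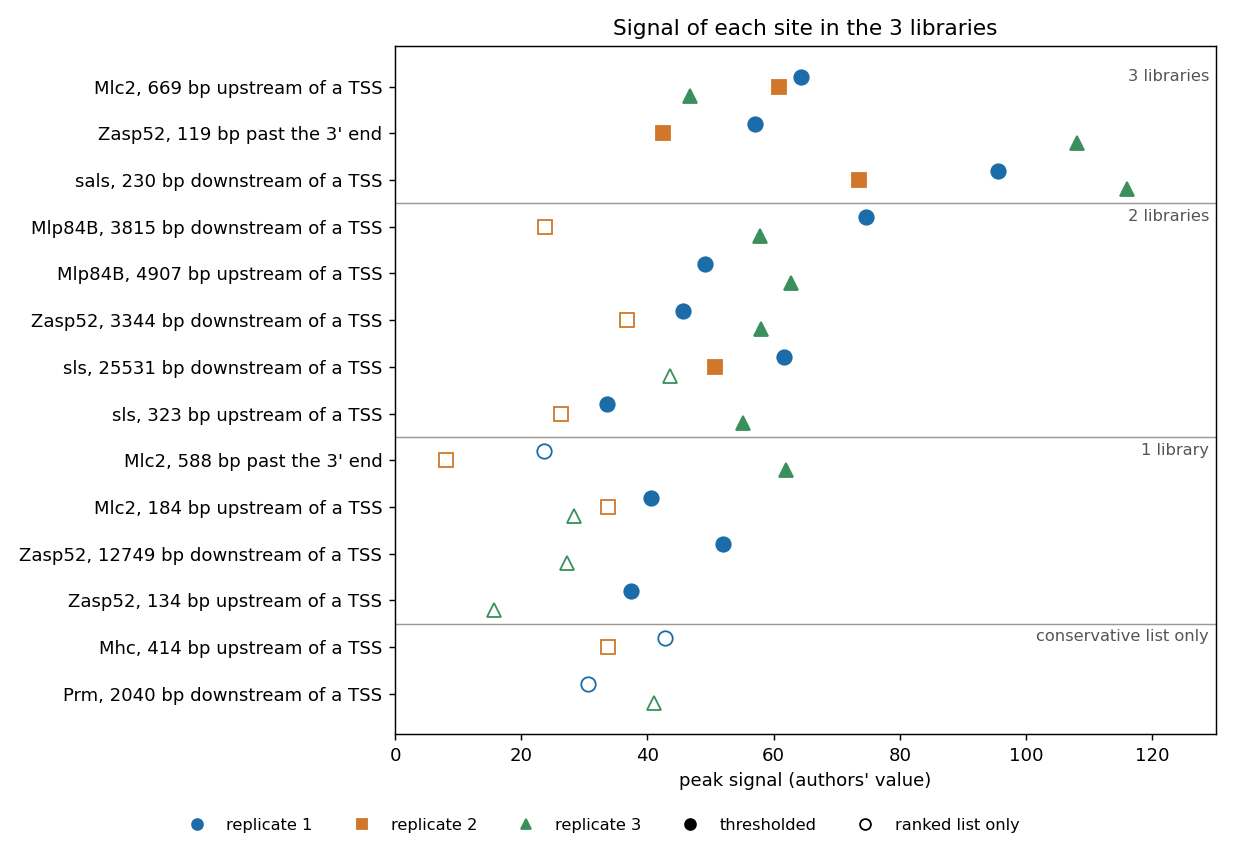
Peak signal (authors' value) in replicates 1, 2 and 3 at the 12 merged thresholded regions and the 2 places found in the conservative list alone, labelled by gene and distance. Filled symbols passed the threshold and open ones are in the ranked list alone; a missing symbol means that no ranked peak lay within 100 bp, as for replicate 2 at the region 4907 bp upstream of Mlp84B.

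The 12 merged regions at the 10 genes were 3 shared ones, 5 with summits of 2 libraries and 4 with a summit of 1. Of the 5 regions in 2 libraries, 4 lacked replicate 2 and 1 lacked replicate 3. Replicates 1 and 3 alone, without replicate 2, shared 7 regions at 5 of the genes. The 3 shared regions came 321st, 801st and 869th of 1180 by mean percentile, so the site at sals was in the upper part of the order and the others were in the lower part.

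At the other genes the best remaining place with ranked peaks in all 3 libraries was of low signal. At Mhc it was a coding exon, with 17.8, 15.5 and 14.8 in replicates 1, 2 and 3. At sls it lay 4812 bp upstream in an intron of zormin, with 17.4, 6.62 and 16.6. At Mlp84B it lay 4409 bp past the 3′ end at an Alh promoter, with 18.5, 15.9 and 12.2. None of these signals reached the lowest thresholded value at the 10 genes, although the whole lists hold thresholded peaks of lower signal. At sals, Mlc2 and Zasp52 such places had mean signals of 15.3, 11.4 and 20.4.

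At the promoters, taken as 500 bp on each side of a TSS, thresholded peaks were found for sals in all 3 libraries. For sls they were found in replicates 1 and 3, and for Mlc2 and Zasp52 in replicate 1. The share of all protein-coding genes with such a promoter peak was not counted, so these calls have no baseline. Genes with more TSSs also have more promoter sequence. The best promoter peaks of Mlc1 had signals of 8.61 and 15.3 in replicates 1 and 2, and replicate 3 had none. Those of Mlp60A had global IDR values of 0.872, 0.787 and 0.625 in replicates 1, 2 and 3. At Mlp84B the promoter signal was 5.34 in replicate 1 and 17.8 in replicate 3, while its thresholded regions lay in the 3′ UTR and far upstream. At Prm the promoter signals were 16.4, 12.3 and 14.5 in replicates 1, 2 and 3.

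Before the threshold, ranked peaks were somewhat denser at these genes than over the arms. The windows of the 10 genes together held 256, 270 and 254 ranked peaks, or 7.40, 7.80 and 7.34 per 10 kb, a mean of 7.51 ± 0.252 (SD, n = 3). The arms had 6.05, 6.65 and 6.53 per 10 kb, a mean of 6.41 ± 0.320. They include sequence away from genes, and the ranked density around all protein-coding genes was not counted. The density varied among the genes, and apart from bt the lowest mean was at sls, with 5.97 ± 1.17 per 10 kb. The highest was at Mlp60A, with 11.0 ± 2.54 per 10 kb, although that gene had no thresholded peak. A dense ranked list was thus no mark of a thresholded region at these genes.

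**Figure D4:**
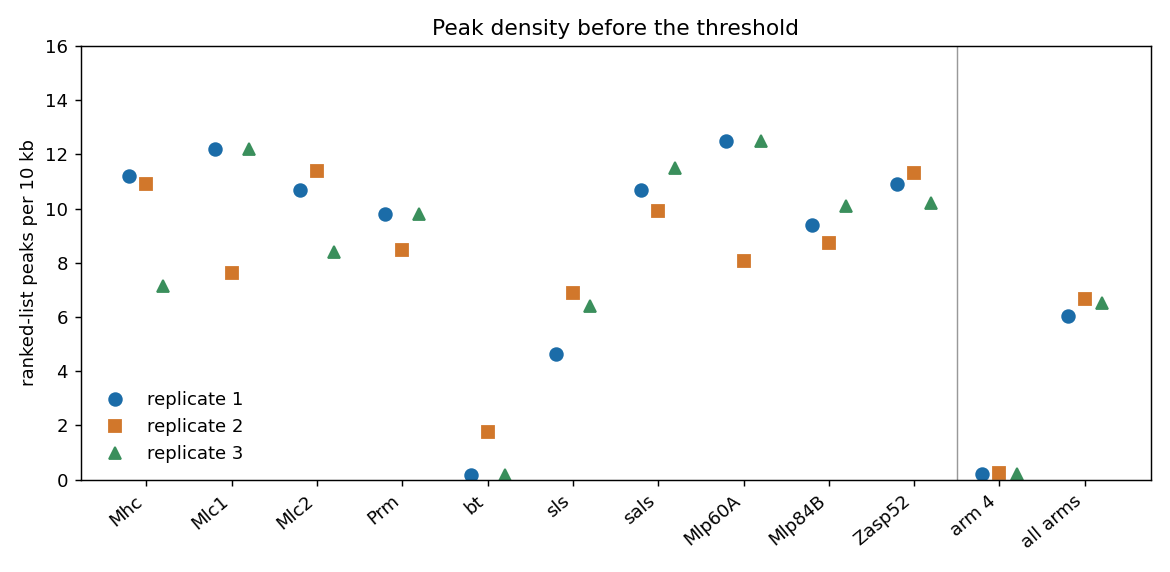
Ranked-list peaks per 10 kb in the window of each gene, in replicates 1, 2 and 3, with chromosome arm 4 and all arms at the right. At bt the density is 0.161 in replicates 1 and 3 and 1.77 in replicate 2, while over all arms it is 6.05 to 6.65.

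The EGR core was found within 100 bp of the centre in 2 of the 3 shared regions at these genes (66.7%, Wilson 95% interval 20.8 to 93.9%), against 49.1% of all 1180. It was in 4 of the 8 regions with summits of at least 2 libraries (interval 21.5 to 78.5%), against 43.9% of all such regions. Over merged regions of any library it was in 6 of 12 (interval 25.4 to 74.6%), against 35.5% of all 4000. The core was in 8.77% of the windows of the same length 1000 bp to either side of the shared regions and in 3.66% of those at the 5′ ends of protein-coding genes. All the intervals at the 10 genes include the share of the whole list, so no difference was detectable with so few regions. The intervals cover counting error only, and regions of the same gene are not independent.

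Other motifs were searched in the same windows on both strands. The site of Mef2, the factor that drives muscle gene transcription, was in 0 of the 12 merged regions at these genes, which allows a share of up to 24.2% (Wilson 95% interval), against 5.97% of all 4000. The E-box CANNTG, bound by bHLH factors, was in 9 of 12 (75.0%), against 66.6% of all. The GAGA sequence GAGAG was in 5 of 12 (41.7%), against 35.5%. The sequence GGAATG, bound by Scalloped, was in 2 of 12 (16.7%), against 7.88%. At the 5′ ends of all protein-coding genes these were found in 6.46%, 63.7%, 22.5% and 7.64%, in the order in which the motifs are named here. None of these shares differs from that of the whole list beyond the interval of 12 regions.

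Few EGR cores were at a thresholded summit, both at these genes and on the arms. The windows of the 10 genes held 144 cores, or 4.16 per 10 kb, against 4.08 per 10 kb on the arms. Thresholded summits of all 3 libraries lay within 100 bp of 2 of them (1.39%), both at sals, against 1.43% of the 54645 cores on the arms. A thresholded summit of any library was that close to 10 of the 144 cores (6.94%), against 3.69% on the arms. Of these 10, 5 were at Zasp52, 3 in a single region of Mlp84B and 2 in a single region of sals, so the 10 are not separate cases. At the other end, 46 of the 144 cores (31.9%) had no ranked peak within 100 bp in any library, against 27302 of 54645 on the arms.

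The number of cores varied by gene. Zasp52 held 42 cores and sals 20, and sals had the highest density, at 8.25 per 10 kb, beside a mean of 10.7 ranked peaks per 10 kb. The lowest densities were 1.93 cores per 10 kb at bt and 2.56 at sls, the genes that also had the fewest ranked peaks per 10 kb. At sls none of 22 cores was within 100 bp of a thresholded summit, although the gene had 2 thresholded regions. At Mlc2 the 4 cores had no ranked peak near them in any library, so its thresholded regions all lay away from the core. At bt 11 of the 12 cores had no ranked peak near them. At Mhc and Prm 1 core each, of 10 and 11, lay within 100 bp of a peak of the conservative list.

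Other genes of the contractile apparatus were taken as a list of 25, all of which were found in the annotation. A shared region stood at 14 of them (56.0%), against 3 of the 10 genes above and 15.0% of all protein-coding genes. In at least 2 libraries the count was 16 of 25, against 24.4% of all genes, and in the conservative list 19 of 25, against 37.0%. By length of DNA the 10 genes above had 8.67 shared regions per Mb, against 24.5 per Mb around the other 25, whose median length was 10.9 kb. Both lists were chosen with earlier results known, so the difference between them was not tested and is given as a description. The 14 genes were Actn, Obsc, tmod, Zasp66, Strn-Mlck, Fhos, DAAM, cher, wupA, TpnC73F, TpnC47D, Act57B, Act87E and Msp300.

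For each of the 14 genes the shared region of highest mean percentile was taken, and the 4 highest are given here. The troponin C gene TpnC73F had 165, 122 and 196 in replicates 1, 2 and 3, a mean of 161 ± 37.1 (SD, n = 3). Strn-Mlck, a myosin light chain kinase gene, had 90.5, 157 and 237, a mean of 161 ± 73.1. Fhos, which encodes a formin of thin filament assembly, had a mean of 125 ± 36.4, and the troponin I gene wupA had 113 ± 42.2. The site at sals, with 94.99 ± 21.1, was below these 4 means. Within each library, TpnC73F and wupA were above sals. Strn-Mlck and Fhos were above it in replicates 2 and 3 and slightly below it in replicate 1. The SDs cannot judge these gaps, since all the sites were measured in the same 3 libraries. At tmod and DAAM the means were 103 and 99.6, and at the remaining 8 genes they were at most 75.9, all below that of sals.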

How the data were processed

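ChIP-seq of 3 libraries of 1 group was used as peak lists. Per the labels, sonicated chromatin had a size range of 200 to 800 bp. The authors deposited a ranked and a thresholded list per library on dm6, with a signal of no stated normalization, a score that is a scaled IDR, and the −log10 of the global IDR. Aligner, peak caller and read totals were not given in the sources used here. Sequencing depth is therefore unknown. Means and SDs rest on the 3 libraries, and motif shares on the number of regions. The deposited text notes name 1 control file for all 3 libraries. Joint lists made by the authors from the 3 libraries served as their own values; 2 more such lists were not used.

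Summits were widened by 100 bp, merged, and assigned to genes of Ensembl release 115 (Release 6, dm6 coordinates) within 5000 bp of the gene body. Promoters lay within 500 bp of a TSS. Ranked peaks within 100 bp of a site gave its values, except at the best ranked places, where the merged summits themselves did. Motifs were searched within 100 bp of each centre, and Wilson intervals are at 95%. Python 3.11.15, pandas 2.3.3, NumPy 2.4.6 and SciPy 1.17.1 were used, and the scripts were tested on simulated data.

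The genes, the list of other sarcomere genes and the rules were chosen with earlier results of these data known. The text names all 10 genes, every shared region, regions in 2 libraries, the best other ranked place at each gene by mean percentile, and the nearest gene. Other sites, the conservative-list places and the census of cores were added with values in view. Alternatives changed the merging, the IDR limit, the libraries, the joint list, the window and the gene assignment. Nothing says that the replicates came from separate collections beyond their label.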

Additional observations from a re-analysis of the deposited data

How the results depend on the processing

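The number of genes with a shared region, 3, was 1 at a global IDR of 0.001 or less and 1 within gene bodies alone, where only sals was left. It was 5 with summits of at least 2 libraries, 7 in the conservative and 8 in the longest joint list. The share of all protein-coding genes rose too, from 15.0% for shared regions to 24.4%, 37.0% and 42.7% in these 3 settings. With 1 library left out the number was 3 to 5. The share of all genes was not counted at the stricter IDR, within gene bodies or with 1 library left out. The 3 shared regions became 1 at the stricter IDR, 1 within gene bodies, 8 in at least 2 libraries, 13 and 15 in the joint lists, and 3 to 7 with 1 library left out. Both highest counts came without replicate 2. The EGR core share of 66.7% was 100% at the stricter IDR and within gene bodies (1 of 1 region each), 33.3% within 50 bp of the centre, where the Zasp52 core falls outside. Thresholded summits per library averaged 3.33 within gene bodies and 11.7 within 10000 bp, against 7.67. The site at sals was present under every alternative listed, while Mlc1 and bt had no region under any. With 1 library left out, mean signals were 84.6 to 106 for sals, 53.8 to 62.5 for Mlc2 and 49.7 to 82.3 for Zasp52. The other alternatives left the mean of a region unchanged wherever it was given. The SD cannot judge these shifts, since leaving out 1 of 3 values always moves their mean by less than their SD. No paired analysis was possible because the series has 1 group.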

Other observations

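Mlp60A had 2 peaks in the longest joint list that are in neither the thresholded nor the conservative lists. One lay in a coding exon, 1046 bp downstream of a TSS, with ranked signals of 25.9 in replicate 1 and 18.6 in replicate 3. The other lay 17 bp from a TSS of CG16786, 3576 bp past the 3′ end of Mlp60A, with 21.7 in replicate 1 and 20.2 in replicate 3. Replicate 2 had no peak within 100 bp of either centre, its peak of 13.9 at the second place lying slightly farther off, and neither window held an EGR core.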
